A study of Homo sapiens with 8 samples.

Results

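MET, MST1R and the TAM family (AXL, MERTK and TYRO3) are receptor tyrosine kinases that can carry growth signals in place of a blocked receptor. Their RNA was followed, together with that of their ligands HGF, MST1, GAS6 and PROS1, in non-small cell lung cancer cells before and after selection for resistance to FGFR inhibition. The 9 genes, 5 receptors and 4 ligands, were taken by symbol from the 37441 Ensembl genes of the count table, and all 9 were among the 18203 genes with at least 10 counts over the 8 libraries.

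The study compared 2 established cell lines that respond to FGFR inhibition, NCI-H1581 and NCI-H1703, with variants of them, NCI-H1581R and NCI-H1703R, that had become resistant to the pan-FGFR inhibitor CPL304110. The resistant variants came from culture in stepwise increasing inhibitor, beginning at 50 nM and ending at 2.5 uM for NCI-H1581R and 5 uM for NCI-H1703R over 4 to 6 months. Each of the 4 variants gave 2 libraries, harvested 24 h after a change of medium, the procedure being repeated for the second replicate. Whether that medium held the inhibitor, and whether a resistant variant was a clone or a pool, is not given in the sources used here. All libraries of a line shared their medium, DMEM/F12 for NCI-H1581 and NCI-H1581R and RPMI 1640 for NCI-H1703 and NCI-H1703R, with 10% serum, so the line, the medium and the final dose cannot be told apart in comparisons between lines.

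HGF, secreted mostly by mesenchymal cells, is the ligand of MET, and MST1 (macrophage stimulating protein) is the ligand of MST1R, which is also called RON. Both ligands are made as inactive precursors that proteases cut on the cell surface or in the matrix, and both receptors signal through docking proteins to the MAPK and PI3K pathways. GAS6 and PROS1 (protein S) are vitamin K-dependent proteins that bridge phosphatidylserine on dying cells to the TAM receptors. GAS6 binds all members of the TAM family, and PROS1 binds TYRO3 and MERTK. MET and AXL are known for carrying resistance to kinase inhibitors in lung cancer.

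The promoters of MET, HGF and AXL are shown because these were the members with the widest range of levels among the 4 variants. The sequences are RefSeq entries on GRCh38.p14, which held all 9 members in 11 entries, and are written 5′ to 3′ on the strand of the gene. Shown are chr7:116671946-116672195 (plus strand, the 250 bases before the MET start), chr7:81770137-81770290 (minus strand, from 243 to 90 bases before the HGF start, the stretch free of annotated exons) and chr19:41218973-41219222 (plus strand, the 250 bases before the upstream AXL start). Capitals mark matches on either strand to the GC box of SP1 (GGGCGG), the TEAD site (GGAATG) and the E-box of ZEB1 and SNAI2 (CACCTG), and no base belonged to more than 1 motif here.
MET: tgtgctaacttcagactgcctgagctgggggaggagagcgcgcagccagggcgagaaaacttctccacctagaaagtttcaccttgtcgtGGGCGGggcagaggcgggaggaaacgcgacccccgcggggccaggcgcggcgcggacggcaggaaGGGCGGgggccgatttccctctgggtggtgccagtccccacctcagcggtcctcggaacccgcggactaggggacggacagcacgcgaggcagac
HGF: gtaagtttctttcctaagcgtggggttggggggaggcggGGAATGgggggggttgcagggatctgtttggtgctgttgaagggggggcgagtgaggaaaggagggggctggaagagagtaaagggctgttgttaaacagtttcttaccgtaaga
AXL: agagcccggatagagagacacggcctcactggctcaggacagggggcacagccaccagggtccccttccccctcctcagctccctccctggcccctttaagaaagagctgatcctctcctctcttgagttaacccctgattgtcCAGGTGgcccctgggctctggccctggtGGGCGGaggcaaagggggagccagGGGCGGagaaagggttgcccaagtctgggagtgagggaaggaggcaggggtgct
The MET stretch held 2 GC boxes and the HGF stretch 1 TEAD site, while the AXL stretch held 2 GC boxes and 1 E-box. Among 35116 RefSeq promoters cut to the 250 bases before the start, 42.6% held a GC box, 11.9% the TEAD site and 17.5% the E-box. The HGF stretch is shorter, at 154 bases, and lies within the annotated span of the gene. Over the full 250 bases before the HGF start, the TEAD site was also the only match. The AP-1 site (TGANTCA), found in 6.57% of promoters, and the HIF site (ACGTG), found in 18.5%, had no match in these 3 stretches. The 250 bases before the second AXL start, which are not shown, held 2 HIF sites and 1 TEAD site. A match describes the letters only.

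Counts per library summed to between 33800389 and 40031710. Levels are given as CPM, counts scaled to library size by the TMM method over the 8 libraries, and as CPM per kb of the canonical GENCODE transcript where genes are compared with each other. Among the lung markers, the lineage factor NKX2-1 ranged from 13.6 to 59.5 CPM in NCI-H1581 and NCI-H1581R and reached at most 0.72 CPM in the other line. MUC1 was at 17.9 and 11.2 CPM in NCI-H1581 and at 5.61 and 5.89 CPM in NCI-H1581R. In NCI-H1703 and NCI-H1703R MUC1 was between 9.78 and 15.5 CPM. NAPSA and SFTPB reached at most 2.30 CPM in any library, and SFTPC, a gene of alveolar cells, had 0 counts in all libraries. Of the squamous markers, TP63 was at 6.26 and 5.79 CPM in NCI-H1581 and at 27.8 and 31.2 CPM in NCI-H1581R. It reached at most 0.24 CPM in NCI-H1703 and NCI-H1703R. SOX2 was at 38.0 and 37.2 CPM in NCI-H1703 but under 1 CPM in NCI-H1703R, and at most 6.66 CPM in NCI-H1581 and NCI-H1581R. KRT5, KRT6A and DSG3 reached at most 1.17 CPM in any library. EPCAM, an epithelial gene, reached at most 15.9 CPM, and VIM, a mesenchymal filament gene, ranged from 2634 to 6711 CPM. CDH2, another mesenchymal marker, was at 50.2 and 48.6 CPM in NCI-H1703 and at 1.08 and 1.16 CPM in NCI-H1703R. The 5 epithelial markers summed to between 73.3 and 75.6 CPM in NCI-H1703 and between 6.76 and 8.41 CPM in NCI-H1703R, a difference that lay mainly in KRT18. Leukocyte markers summed to at most 2.46 CPM in any library. The replicates of every variant were further apart than sampling noise, most of all in NCI-H1581R.

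Within NCI-H1581, resistance went with lower HGF and GAS6 and higher PROS1, and within NCI-H1703 AXL alone was called, as lower, a call that depended on the setting. A gene was called when its adjusted p was under 0.1 in edgeR's quasi-likelihood test. In NCI-H1581R against NCI-H1581, 3 of the 9 genes were called, 1 higher and 2 lower, where 15.1% of all genes tested were called. In NCI-H1703R against NCI-H1703, 1 of 9 was called, a share close to the 14.7% of all genes. The median log2 fold change of the 9 genes was 0.17 in NCI-H1581R and -0.19 in NCI-H1703R, beside 0.04 and 0.00 over all genes. With the replicate number as a block, AXL, MET (lower) and MERTK (higher) were called in NCI-H1703R, 3 of the 9 genes, and the share of all genes called there was 34.9%. DESeq2 called MET and not AXL there, and AXL was also lost with no filter on low counts and without any of the 4 libraries, as given below.

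**Figure D1:**
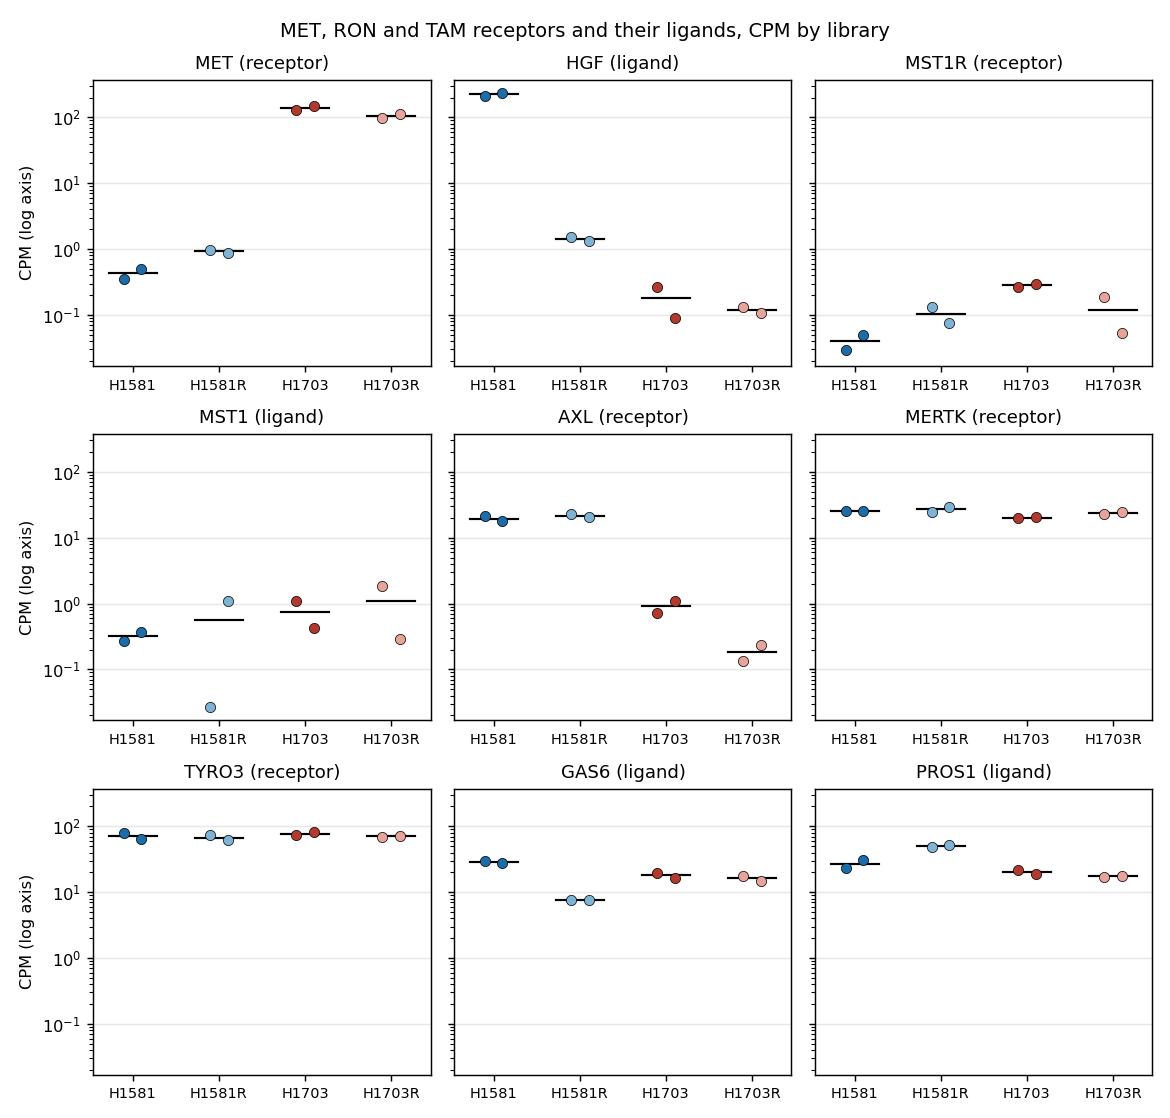
CPM of the 9 genes in each of the 8 libraries on a log axis, with 1 point per library and a bar at the mean of each variant (n = 2). MET and HGF lay at opposite ends in the sensitive lines (MET 139 CPM in NCI-H1703, HGF 225 CPM in NCI-H1581), HGF was 1.43 CPM in NCI-H1581R, and TYRO3 and MERTK kept to a narrow range.

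HGF was the member that differed most between a sensitive line and its resistant variant. The gene (ENSG00000019991) lies on chromosome 7 from 81699010 to 81770438 on the minus strand of GRCh38, as do the coordinates that follow. It had 7187 and 9477 counts in the NCI-H1581 libraries and 58 and 52 counts in the NCI-H1581R libraries. These counts correspond to 213 and 237 CPM against 1.54 and 1.32 CPM, and the groups did not overlap. HGF fell by 7.29 on the log2 scale (SE 0.24, adjusted p = 4.16e-05), a 156-fold lower level, and 87 of 18203 genes had a more negative change. The call held in every alternative that was run, with values between -7.39 and -7.20 over the fits without a library.

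Markers of fibroblasts, the cells best known for making HGF, were also high in NCI-H1581 and moved in the same direction. All 5 of them were at 1 CPM or more in NCI-H1581, where they summed to between 6497 and 6720 CPM, against 3 of 5 and between 3126 and 3272 CPM in NCI-H1581R. DCN was at 48.9 and 43.4 CPM in NCI-H1581 and at 0.24 and 0.08 CPM in NCI-H1581R, while the collagen genes COL1A2 and COL3A1 were between 2046 and 4244 CPM in NCI-H1581 and between 976 and 2262 CPM in NCI-H1581R. The mesenchymal markers did not all fall. FN1 was at 0.62 and 1.42 CPM in NCI-H1581 and at 745 and 919 CPM in NCI-H1581R, and ZEB1 was also higher there. VIM, CDH2 and SPARC were lower in NCI-H1581R. Leukocyte markers summed to at most 1.36 CPM in these libraries, with CD3E and CD14 at 0. The libraries came from cultures of an established cell line. In bulk RNA, fewer cells with these transcripts and less of them per cell cannot be told apart. The part of such markers in the HGF result was not tested.

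In NCI-H1703, HGF was close to the limit of detection. The libraries held 10 and 3 counts in NCI-H1703 and 5 and 4 counts in NCI-H1703R, and the groups overlapped. The difference of -0.59 (95% interval -2.64 to 1.46, adjusted p = 0.735) was not detectable at this depth.

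MET, the HGF receptor (ENSG00000105976, chromosome 7, 116672196 to 116798377, plus strand), was abundant in the line where HGF was close to the limit of detection. It had 4856 and 4903 counts in NCI-H1703 and 3682 and 4336 counts in NCI-H1703R, that is 131 and 147 CPM against 97.3 and 114 CPM. Both resistant libraries lay below both sensitive ones. The log2 difference of -0.36 (SE 0.12, 95% interval -0.65 to -0.07) missed the threshold with an adjusted p of 0.129. It passed with the replicate block (-0.36, adjusted p = 0.00200), with DESeq2 (-0.38, adjusted p = 0.0361), under the filter of 10 or more counts per library (adjusted p = 0.0582) and without NCI-H1703R replicate 2 (-0.48, adjusted p = 0.0948).

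In the NCI-H1581 pair MET was scarce. Its counts were 12 and 20 in NCI-H1581 and 37 and 34 in NCI-H1581R, or 0.36 and 0.50 CPM against 0.98 and 0.86 CPM. The resistant libraries were the higher ones without overlap, yet the difference of 1.09 (95% interval -0.27 to 2.46, adjusted p = 0.306) was not called in any alternative, with an adjusted p between 0.388 and 0.631 when libraries were left out. The highest MET level in NCI-H1581R was thus under 1 CPM, against at least 97.3 CPM in every NCI-H1703 and NCI-H1703R library.

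MST1R (ENSG00000164078, chromosome 3, 49887002 to 49903873, minus strand), a relative of MET, was barely detected in any library. Counts were 1 and 2 in NCI-H1581, 5 and 3 in NCI-H1581R, 10 and 10 in NCI-H1703 and 7 and 2 in NCI-H1703R. The largest of these equals 0.30 CPM. No difference with resistance was called in either line (adjusted p = 0.534 and 0.427). Overlapping antisense RNA genes cover 6.78% of its exon bases, so that counts this low cannot be assigned to MST1R with certainty.

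MST1 (ENSG00000173531, chromosome 3, 49683947 to 49689501, minus strand), the ligand of MST1R, varied more between replicates than between variants. It had 9 and 15 counts in NCI-H1581, 1 and 43 in NCI-H1581R, 40 and 14 in NCI-H1703 and 71 and 11 in NCI-H1703R. The groups overlapped in both lines, and neither difference was called (0.81, adjusted p = 0.733, and 0.53, adjusted p = 0.788). Its near-identical copies MST1P2 and MST1L had up to 23 and 9 counts, and reads may be split among them. Other genes, APEH among them, cover 7.44% of its exon bases, so MST1 values are uncertain.

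**Figure D2:**
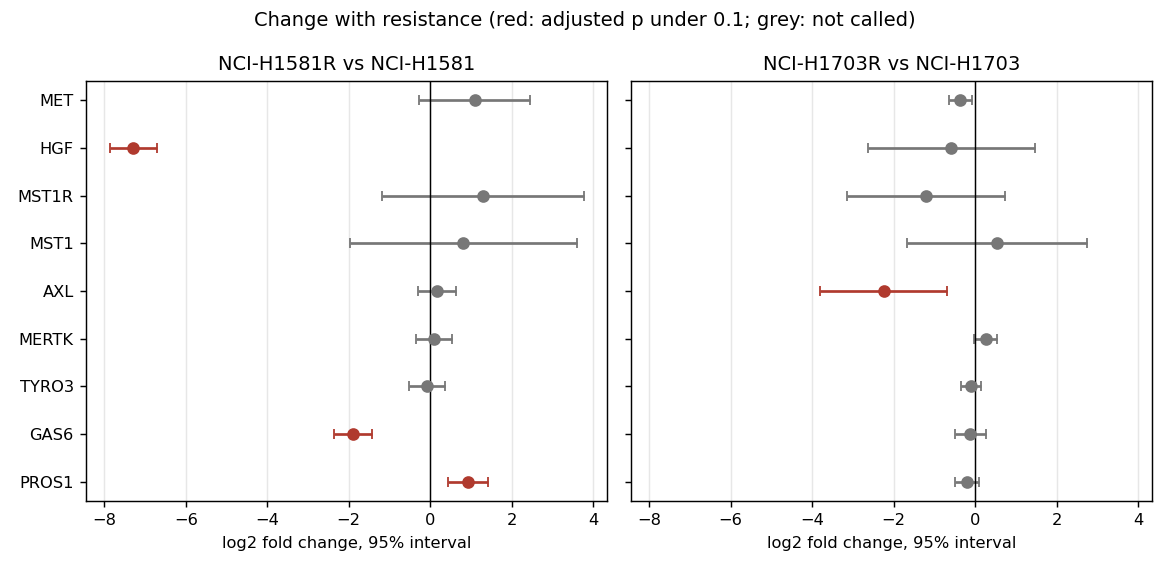
Log2 fold change of each of the 9 genes in NCI-H1581R against NCI-H1581 (left) and NCI-H1703R against NCI-H1703 (right), with 95% intervals from edgeR. Red points are called and grey points are not. HGF (-7.29), GAS6 (-1.90) and PROS1 (0.93) were called on the left and AXL (-2.25) on the right.

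Of the TAM receptors, AXL alone was called within a line, in NCI-H1703. AXL (ENSG00000167601, chromosome 19, 41219223 to 41261766, plus strand), the family member tied to invasion and drug tolerance, had 27 and 37 counts in NCI-H1703 and 5 and 9 counts in NCI-H1703R. That is 0.73 and 1.11 CPM against 0.13 and 0.24 CPM, with both resistant libraries lower. AXL fell by 2.25 on the log2 scale (SE 0.63, 95% interval -3.81 to -0.68, adjusted p = 0.0920), and with the replicate block the adjusted p was 0.0199. The call rests on few counts. It was lost with DESeq2 (-2.30, adjusted p = 0.109), with no filter on low counts (adjusted p = 0.115) and when any of the 4 libraries was left out (-2.72 to -1.88, adjusted p between 0.175 and 0.311).

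In the NCI-H1581 pair AXL was well expressed and similar in both variants. It had 712 and 715 counts in NCI-H1581 and 863 and 807 counts in NCI-H1581R, or 21.1 and 17.9 CPM against 22.9 and 20.5 CPM. The ranges overlapped, and the difference was 0.17 with a 95% interval from -0.29 to 0.63 (adjusted p = 0.665). A rise of AXL beyond 0.63 on the log2 scale is outside that interval.

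MERTK (ENSG00000153208, chromosome 2, 111898607 to 112029561, plus strand), which clears dying cells in phagocytes, was present in every library at between 19.98 and 29.4 CPM. Its levels were 25.6 and 25.7 CPM in NCI-H1581, 24.7 and 29.4 CPM in NCI-H1581R, 19.98 and 20.5 CPM in NCI-H1703 and 22.6 and 24.9 CPM in NCI-H1703R. The variants overlapped in NCI-H1581 (0.09, 95% interval -0.36 to 0.53, adjusted p = 0.835). In NCI-H1703 the resistant libraries were the higher ones, with a difference of 0.26 (95% interval -0.02 to 0.54) that was not called (adjusted p = 0.235) but passed with the replicate block (adjusted p = 0.0757).

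TYRO3 (ENSG00000092445, chromosome 15, 41557675 to 41583589, plus strand) was the most even of the 9 genes. Its counts lay between 2418 and 2769 in all 8 libraries, which is between 61.4 and 81.1 CPM. Differences with resistance were -0.08 (95% interval -0.52 to 0.37, adjusted p = 0.863) in NCI-H1581R and -0.10 (95% interval -0.35 to 0.15, adjusted p = 0.628) in NCI-H1703R. The variants overlapped in NCI-H1581, and in NCI-H1703 both resistant libraries were slightly lower.

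Per transcript length, the 3 TAM receptors together summed to between 18.4 and 21.1 CPM per kb in the NCI-H1581 and NCI-H1581R libraries and to between 14.4 and 15.7 CPM per kb in the NCI-H1703 and NCI-H1703R libraries. AXL made up between 20.6% and 23.7% of that sum in the NCI-H1581 and NCI-H1581R libraries. In NCI-H1703 its share was 1.07% and 1.49%, and in NCI-H1703R it was 0.193% and 0.325%. TYRO3 was the largest part in 7 of the 8 libraries, and in NCI-H1581R replicate 2 MERTK (39.1%) and TYRO3 (38.9%) were about equal.

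**Figure D3:**
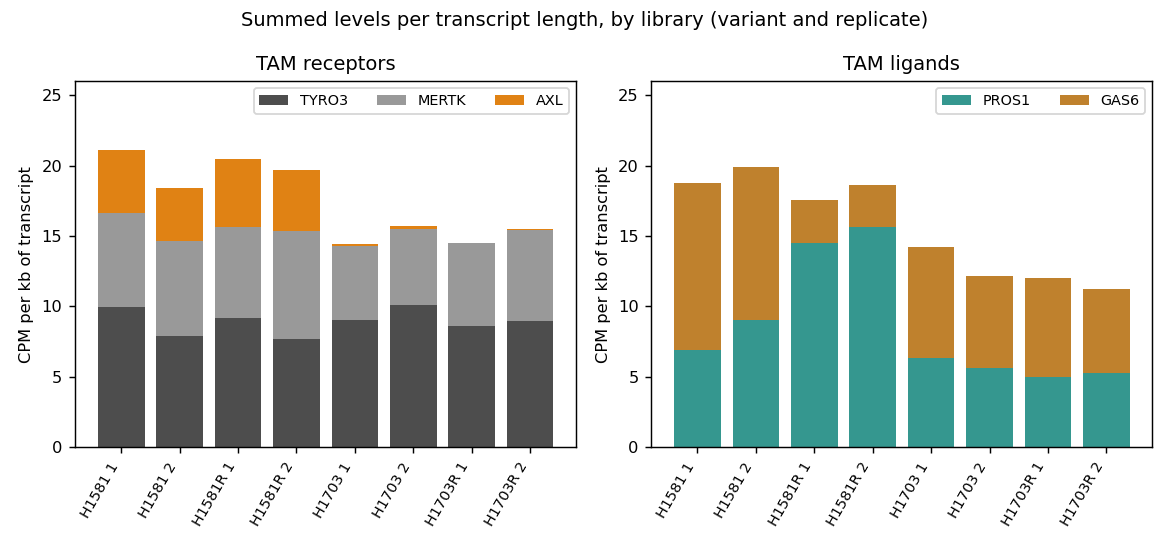
CPM per kb of the TAM receptors (left) and of their ligands (right), stacked for each library in the order of variants and replicates. The orange AXL part is large in NCI-H1581 and NCI-H1581R and a thin line or less in NCI-H1703 and NCI-H1703R, and in NCI-H1581R the GAS6 part shrank to 3.041 and 2.998 CPM per kb while the PROS1 part grew to 14.5 and 15.7 CPM per kb.

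The TAM ligands moved in opposite directions in NCI-H1581R. GAS6 (ENSG00000183087, chromosome 13, 113820549 to 113864076, minus strand), the ligand shared by the whole family, had 1001 and 1094 counts in NCI-H1581 and 287 and 296 counts in NCI-H1581R. These are 29.7 and 27.3 CPM against 7.63 and 7.52 CPM, far apart beside a spread of under 3 CPM within each variant. GAS6 fell by 1.90 on the log2 scale (SE 0.19, adjusted p = 0.00181), a 3.74-fold lower level, and was called in all alternatives. An antisense gene, GAS6-AS1, covers 7% of the GAS6 exon bases, and the strand setting of the counts is not given in the sources used here.

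PROS1 (ENSG00000184500, chromosome 3, 93873051 to 93980003, minus strand), better known as an anticoagulant of blood plasma, had 783 and 1218 counts in NCI-H1581 and 1840 and 2077 counts in NCI-H1581R. The levels were 23.2 and 30.4 CPM against 48.9 and 52.8 CPM without overlap. PROS1 rose by 0.93 on the log2 scale (SE 0.20, adjusted p = 0.0355), a 1.90-fold higher level. Without NCI-H1581 replicate 1 the value was 0.73 (adjusted p = 0.321) and without NCI-H1581 replicate 2 it was 1.14 (adjusted p = 0.142), so that the call needs both sensitive libraries.

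In NCI-H1703 neither TAM ligand was called. GAS6 had 19.8 and 16.3 CPM in NCI-H1703 and 17.6 and 15.0 CPM in NCI-H1703R, with overlap between the variants (-0.12, 95% interval -0.50 to 0.26, adjusted p = 0.709). PROS1 had 21.4 and 19.0 CPM in NCI-H1703 and 16.8 and 17.8 CPM in NCI-H1703R (-0.19, 95% interval -0.48 to 0.11, adjusted p = 0.406). For PROS1 the resistant libraries were the lower ones, a difference within the error of the test.

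Ordered by level per transcript length, the variants differed in which member stood first. In NCI-H1581 it was HGF with 38.6 CPM per kb, followed by GAS6 (11.4), TYRO3 (8.93), PROS1 (7.96), MERTK (6.70) and AXL (4.13), and the ranges of TYRO3 and PROS1 overlapped. In NCI-H1581R it was PROS1 with 15.1 CPM per kb, followed by TYRO3 (8.40), MERTK (7.07), AXL (4.60) and GAS6 (3.02), with overlap of TYRO3 and MERTK. HGF stood at 0.25 CPM per kb there, within the range of MST1.

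MET led in both NCI-H1703 (20.4 CPM per kb) and NCI-H1703R (15.5 CPM per kb). TYRO3 came next, with 9.58 and 8.77 CPM per kb. GAS6, PROS1 and MERTK followed in NCI-H1703 with 7.21, 5.98 and 5.29 CPM per kb, without overlap between neighbours in this order. In NCI-H1703R GAS6 (6.49) and MERTK (6.20) overlapped and PROS1 (5.14) lay below them, and MST1, AXL, MST1R and HGF were all under 0.4 CPM per kb on average.

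The sensitive lines themselves differed in most of the 9 genes. In NCI-H1703 against NCI-H1581, 7 of 9 genes were called, 2 higher and 5 lower, where 62.9% of all genes were called. MET was 8.31 higher on the log2 scale (SE 0.21, adjusted p = 1.56e-07) and HGF was lower (log2 fold change -10.23, SE 0.24, adjusted p = 9.66e-08), so receptor and ligand were abundant in different lines. The size of the HGF value rests on 10 and 3 counts in NCI-H1703, and it was -11.22 without NCI-H1703 replicate 1 and -9.70 without NCI-H1703 replicate 2. AXL, with a log2 fold change of -4.41 (SE 0.27, adjusted p = 8.11e-06), was 21.3-fold lower in NCI-H1703. GAS6 was lower by a smaller margin (-0.65, adjusted p = 0.00545).

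The other calls between the sensitive lines were less firm. MST1R had 20 counts in the 2 NCI-H1703 libraries and 3 in the 2 NCI-H1581 libraries, a ratio of 6.98 after scaling (95% exact counting interval 2.07 to 36.7). It was called with edgeR (adjusted p = 0.0390), and not with DESeq2 (adjusted p = 0.200), with legacy quasi-dispersions (adjusted p = 0.111) or with a library left out (adjusted p between 0.123 and 0.156). MERTK (-0.34, adjusted p = 0.0506) was no longer called when NCI-H1581 replicate 2 (-0.34, adjusted p = 0.103), NCI-H1703 replicate 1 (-0.30, adjusted p = 0.208) or NCI-H1703 replicate 2 (-0.38, adjusted p = 0.118) was left out. PROS1 (-0.42, adjusted p = 0.0723) was no longer called without the same libraries, at -0.20 (adjusted p = 0.325), -0.49 (adjusted p = 0.125) and -0.36 (adjusted p = 0.229). TYRO3 (0.11, 95% interval -0.21 to 0.42, adjusted p = 0.528) and MST1 (1.22, adjusted p = 0.184) were not called.

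Between the resistant variants, NCI-H1703R against NCI-H1581R, 5 of 9 genes were called where 52.5% of all genes were. MET was higher in NCI-H1703R (6.87, adjusted p = 3.36e-05), and so was GAS6 (1.14, adjusted p = 0.00815). AXL (-6.82, adjusted p = 0.000109), HGF (-3.52, adjusted p = 0.00524) and PROS1 (-1.52, adjusted p = 0.00115) were lower there. GAS6 was thus higher in NCI-H1581 among the sensitive lines and higher in NCI-H1703R among the resistant variants.

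Whether the change with resistance differed between the lines was tested as an interaction in a fit of all 8 libraries, and 5 of 9 genes were called where 15.4% of all genes were. The median difference of the 9 genes was -0.30, beside -0.09 over all genes. The value is the change in NCI-H1703R minus the change in NCI-H1581R. It was 6.68 for HGF (SE 1.11, adjusted p = 0.00576) and 1.76 for GAS6 (SE 0.24, adjusted p = 0.00248), both of which fell in NCI-H1581R, and -1.14 for PROS1 (SE 0.23, adjusted p = 0.0163), which rose there. The HGF value was 7.69 without NCI-H1703 replicate 1 and 6.16 without NCI-H1703 replicate 2. HGF had only 10 and 3 counts in NCI-H1703, so a fall like that in NCI-H1581R could not have shown there. The HGF value therefore does not decide whether the lines respond differently. For AXL it was -2.44 (SE 0.62, adjusted p = 0.0399). It lost its call without NCI-H1703 replicate 2 (-2.09, adjusted p = 0.187), NCI-H1703R replicate 1 (-2.08, adjusted p = 0.186) or NCI-H1703R replicate 2 (-2.91, adjusted p = 0.108). For MET it was -1.48 (SE 0.43, adjusted p = 0.0667), although MET was called in neither line alone.

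The MET difference was not called in 6 of the 8 fits that each left out a library. It was lost without NCI-H1581 replicate 1 (adjusted p = 0.166), NCI-H1581R replicate 1 (0.192) or 2 (0.158), NCI-H1703 replicate 1 (0.111) or 2 (0.164) and NCI-H1703R replicate 1 (0.129), with values from -1.76 to -1.27 over the 8 fits. MERTK (0.15, 95% interval -0.31 to 0.61, adjusted p = 0.753), TYRO3 (-0.04, 95% interval -0.54 to 0.46, adjusted p = 0.992), MST1 (adjusted p = 0.995) and MST1R (adjusted p = 0.274) showed no called difference between the lines.

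Genes that work with these receptors were followed in 8 lists of 113 genes, of which 107 were tested. In NCI-H1581R 25 of them were called, 14 higher and 11 lower (23.4%, against 15.1% of all genes). In NCI-H1703R 29 were called, 10 higher and 19 lower (27.1%, against 14.7% of all genes). With the replicate block the number in NCI-H1703R was 55 of 107, where 34.9% of all genes were called. Genes named below are those with the largest called changes at a mean of at least 5 CPM, without overlap between the variants.

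Of the 11 tested proteases and inhibitors that control cutting of HGF and MST1, 5 were called in NCI-H1581R, 2 higher and 3 lower. The median of 0.48 (all genes 0.04) was the value of HGFAC, with a mean of 0.03 CPM over NCI-H1581 and NCI-H1581R. PLG, KLKB1, TMPRSS2 and SERPINA5 had means of at most 0.08 CPM there, so this median rests on genes near the limit of detection. SPINT1, an inhibitor of the HGF activator, fell from 20.2 and 18.1 CPM to 2.02 and 2.46 CPM (-3.08, SE 0.25, adjusted p = 0.000691). SPINT2, a related inhibitor, fell in both resistant variants, from 244.8 and 248.6 CPM to 145 and 122 CPM in NCI-H1581R (-0.87, adjusted p = 0.0233) and from 132 and 131 CPM to 36.4 and 40.5 CPM in NCI-H1703R (-1.74, adjusted p = 0.000863). The protease F12 rose in NCI-H1581R (1.27, adjusted p = 0.0712). HGFAC, the gene of the HGF activator, had means of only 0.03 CPM in the NCI-H1581 pair and 0.25 CPM in the NCI-H1703 pair. ST14 of the same list had means of 0.84 and 0.99 CPM. The scarce genes were named after their values were seen. In NCI-H1703R SPINT2 was the only called gene of 11 (median -0.32, all genes 0.00), and with the replicate block 2 were called.

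Of the co-receptors of MET, 2 of 11 were called in NCI-H1581R, a share near that of all genes, both higher (median -0.04). With the replicate block 2 were called higher and 1 lower, and with DESeq2 2 higher and 2 lower. Of all genes, 3293 of 18203 were called with the block and 3223 of 17835 with DESeq2. NRP1, a neuropilin that binds VEGF and semaphorins, rose from 0.39 and 0.40 CPM to 33.3 and 36.5 CPM (6.47, SE 0.30, adjusted p = 9.59e-05), and NRP2 from 2.58 and 2.10 CPM to 18.5 and 24.1 CPM (3.20, SE 0.28, adjusted p = 0.000902). In NCI-H1703R 4 of 11 were called, all lower (median -0.82), and 6 with the replicate block. They included the proteoglycan SDC1 (145 and 158 CPM to 48.4 and 50.7 CPM, -1.58, adjusted p = 0.00135) and the laminin-binding integrin chains ITGB4 (-1.38, adjusted p = 0.0262) and ITGA6 (-0.87, adjusted p = 0.00499). The fourth was NRP1 itself (-2.28, adjusted p = 0.00665), which had a mean under 5 CPM and was named after its value was seen. The summed epithelial markers, mainly through KRT18, were also lower in NCI-H1703R, as given above, and so was the mesenchymal marker CDH2. Their part in these values was not tested.

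Of the adaptors and effectors of MET and MST1R, 4 of 18 were called in NCI-H1581R, 3 higher and 1 lower (median 0.13), with SOS2 (1.10, adjusted p = 0.0507) and GAB2 (0.79, adjusted p = 0.0899) higher and SHC1 (-0.88, adjusted p = 0.0423) lower. In NCI-H1703R 6 of 18 were called, 3 in each direction (median 0.07), and 10 with the replicate block. CRKL (-0.56, adjusted p = 0.0205) and RAPGEF1 (-0.44, adjusted p = 0.0328), an adaptor and the exchange factor it recruits, were lower. The kinase genes PIK3CA (0.52, adjusted p = 0.0931) and SRC (0.40, adjusted p = 0.0523) were higher. GAB2, with a mean of 1.83 CPM in this line, was lower (-1.80, adjusted p = 0.0706) and was named after its value was seen.

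Genes that degrade or dephosphorylate the receptors were called in 3 of 14 cases in NCI-H1581R, all higher (median 0.25), among them SH3KBP1 (0.94, adjusted p = 0.0961) and PTPRF (0.67, adjusted p = 0.0823). In NCI-H1703R 5 of 14 were called, 1 higher and 4 lower (median -0.09), and 8 with the replicate block. The receptor phosphatases PTPRF (373 and 354 CPM to 138 and 135 CPM, -1.38, adjusted p = 0.00137) and PTPRJ (82.0 and 82.2 CPM to 31.7 and 34.4 CPM, -1.28, adjusted p = 0.00172) were lower, as was LRIG1, which targets receptors for degradation (-0.70, adjusted p = 0.0614). SH3KBP1 was higher there too (0.39, adjusted p = 0.0543).

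Shedding of receptor ectodomains by ADAM proteases is held back by TIMP inhibitors. In NCI-H1581R 2 of 12 genes of this list were called, both lower (median -0.26). TIMP1 fell from 197 and 171 CPM to 0.32 and 0.05 CPM (-9.94, SE 0.38, adjusted p = 4.16e-05), the largest change of any listed gene named here, and TIMP2 fell by 0.79 (adjusted p = 0.0337). In NCI-H1703R 4 of 12 were called, 3 higher and 1 lower (median 0.26), and 8 with the replicate block. TIMP2 was lower (-0.63, adjusted p = 0.0132), while TIMP1 (0.41, adjusted p = 0.0880), ADAM17 (0.38, adjusted p = 0.0570) and its partner RHBDF2 (0.45, adjusted p = 0.0372) were higher.

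Genes for maturation of the TAM ligands, such as the carboxylase GGCX, and for other TAM ligands had 0 of 7 tested genes called by edgeR in both lines (medians 0.32 and -0.05). In NCI-H1581R 3 of the 7 had an unadjusted p under 0.05, 3 were called by DESeq2 and 2 with the replicate block. Over all genes these numbers were 4424 of 18203, 3223 of 17835 and 3293 of 18203. In NCI-H1703R the numbers for the 7 genes were 0, 0 and 1. Over all genes they were 4475 of 18203, 3037 of 17685 and 6357 of 18203 there. GGCX had values of -0.51 (adjusted p = 0.120) and 0.05 (adjusted p = 0.803).

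TAM adaptors and outputs were called in 4 of 20 cases in NCI-H1581R, 1 higher and 3 lower (median -0.01), and in 5 of 20 in NCI-H1703R, 2 higher and 3 lower (median -0.09), with 10 called there under the replicate block. The docking protein BCAR1 was lower in both resistant variants (-0.84, adjusted p = 0.0332, and -0.69, adjusted p = 0.0172). In NCI-H1581R TNS2 (-1.35, adjusted p = 0.0146) was lower. In NCI-H1703R the signalling inhibitor SOCS3 fell from 138 and 146 CPM to 44.9 and 61.0 CPM (-1.39, adjusted p = 0.00585), VAV2 was lower (-0.35, adjusted p = 0.0660) and TWF2 was higher (0.51, adjusted p = 0.0450).

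Factors reported to act on the AXL or MET genes were called in 5 of 18 cases in NCI-H1581R, 3 higher and 2 lower (median 0.02). ZEB1 rose from 1.66 and 2.30 CPM to 18.9 and 31.7 CPM (3.67, adjusted p = 0.00180), FOSL1 of the AP-1 family fell from 17.9 and 14.2 CPM to 2.05 and 1.80 CPM (-3.05, adjusted p = 0.00107), and HIF1A (1.04, adjusted p = 0.0134) and YAP1 (0.89, adjusted p = 0.0186) were higher. In NCI-H1703R 4 of 18 were called, 1 higher and 3 lower (median -0.08), and 11 with the replicate block. JUN, another AP-1 gene, fell from 59.4 and 57.4 CPM to 15.3 and 21.3 CPM (-1.65, adjusted p = 0.00415). TEAD1 (-0.59, adjusted p = 0.0344) and FOXM1 (-0.36, adjusted p = 0.0929) were lower and WWTR1 was higher (0.53, adjusted p = 0.0345).

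The genes beside each called member on the chromosome did not all move with it. Of all genes tested, 15.1% were called in NCI-H1581R (median 0.04) and 14.7% in NCI-H1703R (median 0.00). Of the 10 nearest tested protein-coding genes of HGF, 5 on each side, 1 was called higher and 3 lower in NCI-H1581R (median -0.23). The nearest on either side, SEMA3C (-0.91, adjusted p = 0.0482) and CACNA2D1 (-0.71, adjusted p = 0.0697), were lower by far less than HGF. They lie 777 and 176 kb from HGF. Beside GAS6, 4 of 10 were called, all lower (median -0.88), including RASA3 (-2.38, adjusted p = 0.00176) and TFDP1 (-1.06, adjusted p = 0.0132). Of the other 6, GRK1 alone had a positive value, 2.75 (adjusted p = 0.138), with 0 and 9 counts in NCI-H1581 and 24 and 40 in NCI-H1581R. TMEM255B, the nearest to GAS6 at 3.6 kb, had a value of -2.08 (adjusted p = 0.113). Its counts were 33 and 29 in NCI-H1581 and 8 and 7 in NCI-H1581R.

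Beside PROS1, 1 of 10 genes was called higher and 1 lower in NCI-H1581R (median 0.00), where 15.1% of all genes were called. The called genes lie far from PROS1, at 6618 kb (higher) and 4391 kb (lower), while all 10 genes beside AXL lie within 442 kb. Beside AXL in NCI-H1703R, 2 of 10 were called higher and 1 lower (median 0.00), where 14.7% of all genes were called. With the replicate block 4 were called, where 34.9% of all genes were. The nearest gene, HNRNPUL1 at 0.7 kb, had a value of -0.29 (adjusted p = 0.103), and TGFB1, 39.8 kb away, was lower by a small margin (-0.39, adjusted p = 0.0716).

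**Figure D4:**
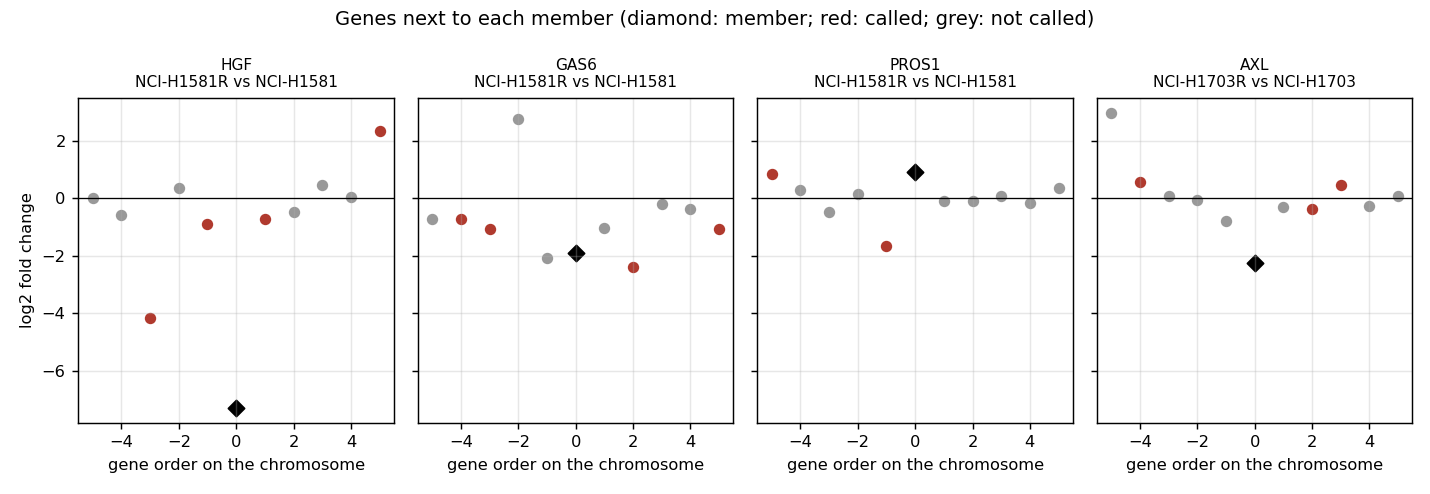
Log2 fold change of the 5 tested protein-coding genes on each side of HGF, GAS6 and PROS1 in NCI-H1581R and of AXL in NCI-H1703R, in gene order along the chromosome. The member is the black diamond, called neighbours are red and other neighbours grey. Neighbours of HGF ranged from -4.15 to 2.34 beside -7.29 for HGF, and those of GAS6 from -2.38 to 2.75 beside -1.90 for GAS6.

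The genes whose log2 CPM followed each called member most closely over the 8 libraries were taken from 11174 genes with a mean of at least 5 CPM. For HGF they were AP3M2 (r = 0.997), GSTM4 (r = 0.993) and ABLIM1 (r = 0.992), and for AXL they included ETV1 (r = 0.998) and B4GALT5 (r = 0.998). For GAS6 they were ZIC5 (r = 0.985), TCF25 (r = 0.980) and ZIC2 (r = 0.979), and for PROS1 FAM222B (r = 0.991), SIKE1 (r = 0.988) and DYRK2 (r = 0.985). The 8 points fall into 2 lines and share their libraries, so that these values describe a pattern of levels.

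Like AXL, ETV1, an ETS factor, was highest in NCI-H1581 and NCI-H1581R. It had 19.2 to 23.2 CPM in those libraries, 1.49 and 1.94 CPM in NCI-H1703 and 0.34 and 0.55 CPM in NCI-H1703R (-1.89, adjusted p = 0.0693). The zinc finger genes ZIC5 and ZIC2 shared the pattern of GAS6. ZIC2 had 52.7 and 59.5 CPM in NCI-H1581 and 5.95 and 7.37 CPM in NCI-H1581R (-3.06, adjusted p = 0.000364), and in NCI-H1703R its value of -0.26 was not called (adjusted p = 0.240). AP3M2 followed HGF over a far narrower range, from 48.7 and 51.7 CPM in NCI-H1581 to between 17.6 and 24.5 CPM elsewhere.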

How the data were processed

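RNA of NCI-H1581, NCI-H1581R, NCI-H1703 and NCI-H1703R was sequenced in 8 libraries, grouped by the labels. Reads had been quantified by the authors using Salmon on GRCh38, with tximport to reach gene level, and the submitters' processing notes also name cutadapt. What was deposited are estimated counts in whole numbers without normalisation. Salmon's version, its annotation and strandedness are not given in the sources used here. Totals were 33800389 to 40031710 counts, and intervals on counts cover counting error only.

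Genes were matched to GENCODE v44 by Ensembl identifier (17177 of 18203 tested). From genes with at least 10 counts in total, edgeR 4.0.16 in R 4.3.3 (TMM, quasi-likelihood test, two-sided, Benjamini-Hochberg threshold 0.1) was fitted to the 4 libraries of each comparison, and to all 8 for the interaction. SE was the log2 fold change over the square root of F. The models were tested on simulated data. Alternatives were DESeq2 1.42.0, RLE, other filters, the replicate block, a single fit, a threshold of 0.05 and leaving out each library. Legacy quasi-dispersions were chosen after seeing the data.

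The 9 genes, the gene lists, the motifs and the tests were chosen with earlier results of these data known. Text names all 9, up to 4 genes per list and line (largest called changes, mean of at least 5 CPM, no overlap), up to 2 neighbours a side and up to 3 genes of like pattern for each called member. Some genes that these rules select are not reported here. The neighbours GRK1 and TMEM255B, the named markers, and HGFAC, ST14, PLG, KLKB1, TMPRSS2 and SERPINA5 were picked once their values were known.

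The protocol states that the procedure was repeated for the second replicate, and same-numbered libraries of a line were taken to share a round of culture, which the labels do not state outright. Their deviations correlated positively (over 11174 genes, r was 0.150 for NCI-H1581 and 0.230 for NCI-H1703), and those between lines negatively (r from -0.338 to -0.049). P-values measure the spread between these replicates. They do not cover the spread between independent selections, and resistance cannot be told apart from the long culture of its selection. Chi-square per degree of freedom between replicates was 24.6 to 103, so no library was a copy of another.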

Additional observations from a re-analysis of the deposited data

Results flagged for a closer look

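In 5 of the 9 genes the change with resistance differed between the lines in edgeR's interaction test, where 15.4% of all genes were called. The change in NCI-H1703R minus that in NCI-H1581R was 6.68 for HGF (adjusted p = 0.00576), 1.76 for GAS6 (adjusted p = 0.00248) and -1.14 for PROS1 (adjusted p = 0.0163). It was -2.44 for AXL (adjusted p = 0.0399) and -1.48 for MET (adjusted p = 0.0667). HGF had between 3 and 10 counts in the NCI-H1703 and NCI-H1703R libraries, and AXL had between 5 and 37 there. MET had between 12 and 37 counts in the NCI-H1581 and NCI-H1581R libraries. The HGF, AXL and MET values thus rest on few counts in the line given. A fall of HGF like that in NCI-H1581R could not have shown in NCI-H1703R, so its value does not decide whether the lines respond differently.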

How the results depend on the processing

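In NCI-H1581R against NCI-H1581, 3 of the 9 genes were called under every alternative except leaving out a library, which gave 2 to 3. In NCI-H1703R against NCI-H1703, 0 were called at a threshold of 0.05 and 0 with no filter on low counts (2 of the 9, MET and AXL, had an unadjusted p under 0.05 in edgeR as reported), 1 with DESeq2, which was MET and not AXL, and 0 to 1 with a library left out. The all-gene count there was 2683, and 274 to 1686 with a library left out. In NCI-H1703 against NCI-H1581, leaving out a library gave 4 to 6 members. Under the filter of 10 or more counts per library, 3 were called between the resistant variants and 3 for the difference between lines, since HGF and AXL were then not tested, and a library left out gave 3 to 5 for that difference. With a library left out, the lone library of a variant was assumed to vary like the others. The cause of these changes was not tested except where stated. In NCI-H1703R against NCI-H1703, the 2 of 9 members with an unadjusted p under 0.05 in edgeR stood beside 4475 of all 18203 genes.

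With the replicate block, 3 members were called in NCI-H1703R against NCI-H1703 and 6357 genes in all. Besides MET and MERTK there, the block changed the call of PROS1 between the sensitive lines (-0.41, adjusted p = 0.1), where same-numbered libraries were not taken as pairs, and of no other member.

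Directions that turned were all of values not called. The TYRO3 difference between lines was 0.0043 with DESeq2, 0.0041 with RLE and 0.0003 under the filter of 10 or more counts per library. With a library left out, TYRO3 ranged from -0.2379 to 0.0787 in NCI-H1581R, from -0.19 to 0.0026 in NCI-H1703R, from -0.0557 to 0.28 between the sensitive lines, from -0.0316 to 0.16 between the resistant variants and from -0.22 to 0.12 for the difference between lines. MST1 ranged in the same order, without the sensitive lines, from -3.47 to 1.75, -1.35 to 1.38, -0.93 to 5.21 and -2.19 to 3.95. MERTK ranged from -0.0646 to 0.22 in NCI-H1581R, HGF from -1.11 to 0.40 and GAS6 from -0.24 to 0.012 in NCI-H1703R, and MST1R from -0.91 to 0.80 between the resistant variants.

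MST1R, with at most 10 counts in a library, gave no DESeq2 adjusted p in either line, nor HGF in NCI-H1703R. Depth limits statements on MST1R and MST1 in all libraries, on HGF and AXL in NCI-H1703 and NCI-H1703R and on MET in NCI-H1581 and NCI-H1581R.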
